A study of Mus musculus with 12 samples.

Results

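The cytokines Il6 and Lif, the receptor subunits Osmr and Il6st, the signal transducer Stat3 and the feedback genes Socs1, Socs2, Socs3, Socs7 and Cish were examined in auditory cortex from acute brain slices. These 10 genes were taken by symbol from the 20989 gene loci listed for each library, and each symbol had 1 locus. The slices came from 6 C57bl6/J mice at 4 weeks of age, and the 2 hemispheres of each slice were separated. The control hemisphere (n = 6) was kept for 1 h in artificial cerebrospinal fluid (aCSF). The cocktail hemisphere (n = 6) spent the same time in cocktail aCSF with 50 µM (-)-Bicuculline methiodide, which blocks GABA-A receptors, with 100 µM each of the transmitters DL-Norepinephrin, Dopamine and Serotonin as hydrochlorides, with 50 µM Carbamolylcholine chloride, an acetylcholine analogue, and with 40 µM Ascorbic Acid. All agents were given together, so the effects of single agents cannot be told apart. The Methods of the study add a rest of 1 h in aCSF for both hemispheres before RNA was taken. Each pair of libraries is 1 mouse, and a whole piece of cortex was sequenced.

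Interleukin 6 and leukemia inhibitory factor (LIF) are secreted cytokines that act through receptors sharing the subunit gp130, the product of Il6st. Ligand binding joins receptor subunits, and for oncostatin M, another ligand of the family, gp130 is joined with the receptor encoded by Osmr. Attached Jak kinases then phosphorylate STAT3, which enters the nucleus and switches on target genes. Among these targets is Socs3, whose product binds gp130 and Jak kinases and shuts the signal down. Other SOCS proteins damp signals of related cytokine and growth hormone receptors. In the brain, microglia, astrocytes, endothelial cells and neurons can all produce or answer these cytokines.

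The promoters of Il6 and Lif, the 2 cytokine genes, and of Socs3, the feedback gene of gp130, are shown to give the sequence before these genes. Promoters of 8 of the 10 genes were matched in RefSeq for GRCm38.p6, the assembly also called mm10, and the 250 bases before the annotated start were searched on both strands. The motifs were the STAT element TTCNNNGAA, the cAMP response element TGACGTCA and its core TGACG, the AP-1 element TGANTCA, the NF-kB element and the serum response element. Matches stand in capitals, and each sequence runs 5′ to 3′ on the strand of the gene and ends just before the start that RefSeq annotates. For Lif and Socs3 the deposited locus begins right after the window, and for Il6 there are 47 bases between them.

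Il6, chr5:30012864-30013113, plus strand: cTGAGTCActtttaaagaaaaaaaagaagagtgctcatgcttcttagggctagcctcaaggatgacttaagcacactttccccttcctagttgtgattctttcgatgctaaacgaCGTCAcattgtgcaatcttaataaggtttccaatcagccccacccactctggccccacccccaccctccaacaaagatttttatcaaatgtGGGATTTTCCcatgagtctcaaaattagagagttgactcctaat

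Lif, chr11:4257318-4257567, plus strand: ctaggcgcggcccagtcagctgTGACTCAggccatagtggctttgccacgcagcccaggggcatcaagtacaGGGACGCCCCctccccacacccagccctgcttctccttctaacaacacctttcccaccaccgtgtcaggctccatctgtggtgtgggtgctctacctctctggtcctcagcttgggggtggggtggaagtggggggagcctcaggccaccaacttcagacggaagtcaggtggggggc

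Socs3, chr11:117969367-117969616, minus strand: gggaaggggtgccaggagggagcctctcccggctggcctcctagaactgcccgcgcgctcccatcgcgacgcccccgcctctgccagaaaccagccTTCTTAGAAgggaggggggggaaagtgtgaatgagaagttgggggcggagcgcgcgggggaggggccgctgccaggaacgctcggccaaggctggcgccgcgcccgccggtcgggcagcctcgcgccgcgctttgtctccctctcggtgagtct

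In the Il6 promoter the capitals mark, in order, an AP-1 element, the core of a cAMP response element on the opposite strand and an NF-kB element. In the Lif promoter they mark an AP-1 and an NF-kB element. The Socs3 promoter held the single STAT element among the 8 promoters, at positions -154 to -146 from the start, against 7.0% of the 32851 promoters in the table with at least 1. AP-1 and NF-kB elements were in 2 of the 8 promoters each, against 6.7% and 7.3% of all. The core of the cAMP response element was in 2 of the 8 (Il6 and Cish) against 17.8% of all, and neither the full element nor the serum response element was found in the 8, against 1.5% of all for each. These matches describe letters in the reference and are not measured binding sites.

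Across the libraries, the expression of the 10 genes spanned from below 1 to about 30 FPKM, which are fragments scaled by transcript length and by all fragments that a library holds on protein coding genes. Reads were recovered from the interval deposited with each FPKM value, and they reached a sum between 10601067 and 19768881 in a control library and between 13544297 and 17643462 in a cocktail library. For the 12032 loci with a mean of at least 1 FPKM, log2(FPKM + 1) was fitted by limma with a term for the mouse, and Benjamini-Hochberg adjustment of p ran over all of them. A fold change on this scale understates the change of genes with low FPKM. Of the 10 genes, 9 passed the filter on the mean over all 12 libraries, and Lif was just below it, with a mean of 0.995 FPKM. In accord with the labelled tissue, 8 of 8 markers of excitatory neurons and 8 of 8 of inhibitory neurons averaged at least 1 FPKM. Of 5 choroid plexus markers, 1 passed the filter, and together they had 1.34 to 2.02 FPKM in control and 1.11 to 2.27 FPKM in cocktail libraries.

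Of the 9 genes tested, 1 was called at an adjusted p under 0.05, and this was Il6, which was lower in the cocktail. In such bulk tissue, fewer cells of a type and less RNA per cell cannot be told apart. Among all loci tested, 1.50% were called, 1.22% higher and 0.274% lower. At an unadjusted p under 0.05, Il6 was again the only one of the 9, against 8.05% of all loci. Only Il6 among the 9 moved in the same direction in 6 of 6 mice, against 6.30% of all loci. The median log2 fold change of the 9 genes was 0.007, and that of all loci was 0.0076. The control and cocktail values overlapped for all 10 genes, while they did not for 0.914% of all loci tested.

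Il6 encodes interleukin 6 and lies on chromosome 5 of mm10 from 30013161 to 30019968. In control hemispheres of mice 1 to 6 its FPKM was 2.18, 2.14, 2.98, 1.71, 2.99 and 2.22, and in the cocktail hemispheres of the same mice it was 1.16, 0.955, 2.30, 1.38, 1.83 and 1.22. Each mouse had less Il6 in the cocktail, although the groups overlapped. Mouse 3 had more in the cocktail than mice 1, 2, 4 and 6 had in control, and mouse 5 had more than mouse 4 had in control. The mean was 2.37 ± 0.513 FPKM in control and 1.48 ± 0.500 FPKM in the cocktail (SD, n = 6 each), a ratio of 0.623. Within mice, the ratio ranged from 0.45 in mouse 2 to 0.81 in mouse 4. On the FPKM + 1 scale the log2 fold change was -0.45 (standard error 0.073, 95% interval -0.61 to -0.29, adjusted p = 0.00746 from limma), and with a pseudocount of 0.1 in place of 1 it was -0.68. Flipping the signs of its 6 differences within mice, in a two-sided exact permutation test, gave p = 0.03125, and 6 pairs allow no smaller p.

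Il6 was the 21st largest fall of the 33 loci called lower, ranked by log2 fold change of FPKM + 1. This scale understates falls at low FPKM, and the rank was not taken on another scale. The fall of Il6 rests on few reads, with 17 to 59 per library and sums of 259 in control and 172 in cocktail libraries. The within-mouse log2 ratios had an SD of 0.33 between mice, against 0.36 from counting error alone, so the mice did not differ among themselves by more than counting gives. The call was lost without the mouse as a block (adjusted p = 0.171 from limma) and with voom on the recovered reads (adjusted p = 0.0728, log2 fold change -0.61). Over the fits that left out 1 mouse, the adjusted p from limma stayed between 0.00684 and 0.0375. By limma, 0 of 9 microglia markers were called and 0 had an unadjusted p under 0.05. Their log2 fold changes lay between -0.20 and 0.12, with a median of 0.033. Together they had 128 to 145 FPKM in control and 127 to 159 FPKM in cocktail libraries. Whether microglia have a part in the fall of Il6 was not tested.

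**Figure D1:**
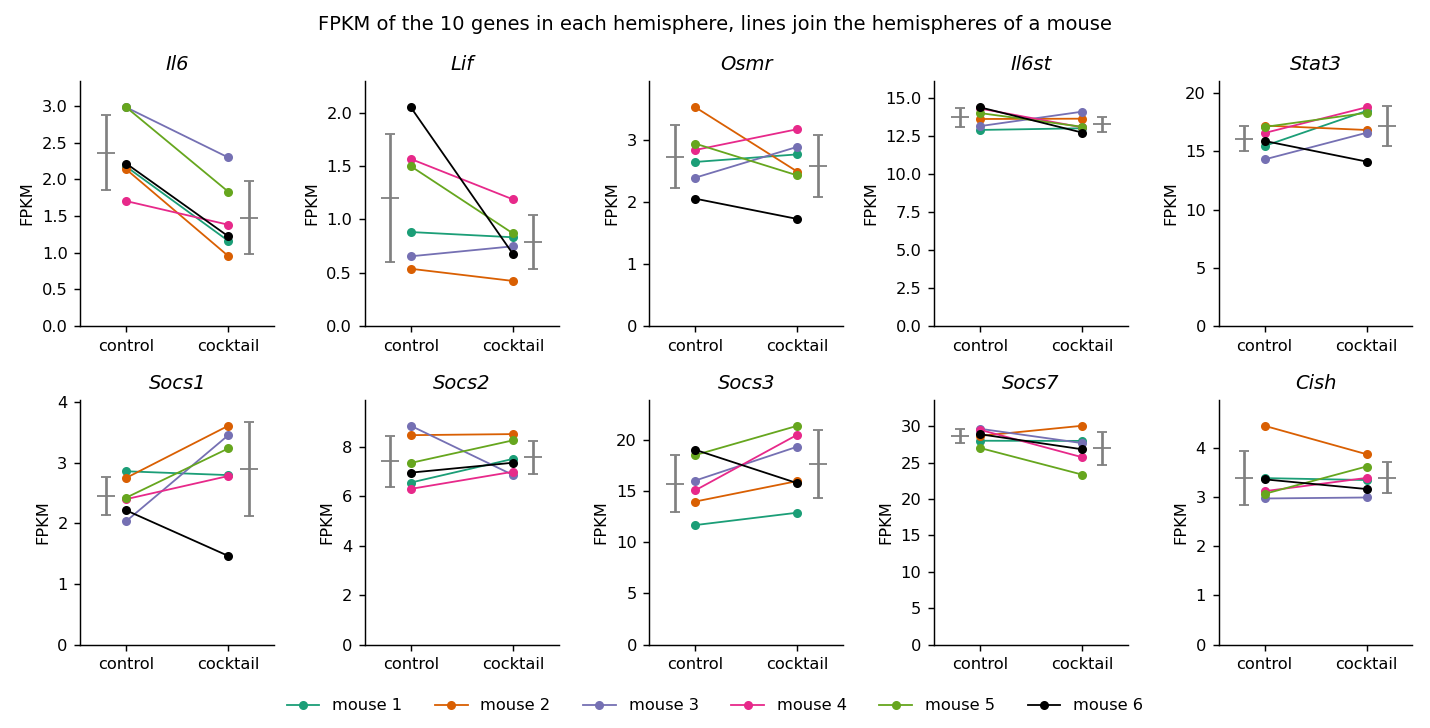
FPKM of each of the 10 genes (y axis, from 0) in the control and cocktail hemisphere of each mouse (colored points joined by a line), with the mean and SD of each group in grey beside the points (n = 6 each). All 6 lines of Il6 point down, and the line of mouse 6 points down in 9 of the 10 panels.

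Lif encodes leukemia inhibitory factor and lies on chromosome 11 from 4257568 to 4272514. It had the lowest level of the 10 genes. Its FPKM in control hemispheres of mice 1 to 6 was 0.882, 0.537, 0.654, 1.57, 1.50 and 2.05, and in cocktail hemispheres it was 0.833, 0.423, 0.748, 1.19, 0.870 and 0.678. The highest control value was 3.82 times the lowest, the widest spread of any of the 10 genes within a group. Lif was lower in the cocktail in 5 of 6 mice and higher in mouse 3, and its means were 1.20 ± 0.599 and 0.790 ± 0.252 FPKM (SD, n = 6 each). The exact permutation test by sign flips gave p = 0.09375. In a fit with no filter on low values, the log2 fold change was -0.26 (standard error 0.112, 95% interval -0.52 to -0.01) with an unadjusted p of 0.0455, and it was not called (adjusted p = 0.605 from limma over 17477 loci). The within-mouse ratio went from 0.33 in mouse 6 to 1.14 in mouse 3, and its SD of 0.63 on the log2 scale was 2.27 times what counting error gives, with 24 to 97 reads per library.

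The other ligands of the family were low in these slices. Of 11 ligand genes, 4 passed the filter, and apart from Il6 none was called. Osm, which encodes oncostatin M, had 1.17 ± 0.311 FPKM in control and 1.37 ± 0.364 FPKM in the cocktail (SD, n = 6 each, log2 fold change 0.13, adjusted p = 0.678 from limma). Cntf, ciliary neurotrophic factor, was below the filter, with 0.671 ± 0.0878 FPKM in control and 0.973 ± 0.245 FPKM in the cocktail (SD, n = 6 each). It was higher in 6 of 6 mice, but in the fit with no filter it was not called (log2 fold change 0.23, adjusted p = 0.293 from limma).

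The receptor subunits did not pass the test. Il6st, which encodes gp130 and lies on chromosome 13 from 112464070 to 112506860, varied little. Its FPKM in mice 1 to 6 was 12.9, 13.6, 13.1, 14.3, 14.0 and 14.4 in control and 13.0, 13.6, 14.1, 13.1, 13.1 and 12.7 in the cocktail, so that 3 mice were higher and 3 lower. The log2 fold change was -0.04 (standard error 0.051, adjusted p = 0.891 from limma), and its 95% interval allows a fold between 0.90 and 1.05. Osmr, the oncostatin M receptor on chromosome 15 from 6813577 to 6874313, was also higher in 3 mice and lower in 3. Its FPKM was 2.64, 3.53, 2.39, 2.84, 2.94 and 2.05 in control and 2.77, 2.49, 2.89, 3.17, 2.43 and 1.73 in the cocktail, with the largest difference in mouse 2. For Osmr the fit gave -0.06 on the log2 scale, with a standard error of 0.078, a 95% interval of the fold of 0.85 to 1.08 and an adjusted p of 0.900 from limma. Of the 7 receptor genes of the family, 6 passed the filter, and by limma 0 were called and 0 had an unadjusted p under 0.05, with a median log2 fold change of -0.027. The most abundant of them per length was Cntfr, the receptor subunit that binds ciliary neurotrophic factor, with 36.3 ± 1.96 FPKM in control and 35.9 ± 3.42 FPKM in the cocktail (SD, n = 6 each). Il6ra, the subunit that binds interleukin 6 itself, had 1.39 ± 0.357 FPKM in control and 1.64 ± 0.133 FPKM in the cocktail (SD, n = 6 each), and was higher in 5 of 6 mice (log2 fold change 0.16, adjusted p = 0.631 from limma).

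Stat3, which encodes the transcription factor downstream of gp130, lies on chromosome 11 from 100886810 to 100939511. Its FPKM in mice 1 to 6 was 15.5, 17.2, 14.3, 16.6, 17.1 and 15.9 in control and 18.5, 16.8, 16.6, 18.8, 18.3 and 14.1 in the cocktail. Mice 1, 3, 4 and 5 were higher in the cocktail, and mice 2 and 6 were lower. Stat3 had a change of 0.09 on the log2 scale (95% interval -0.04 to 0.22, standard error 0.059) and was not called (adjusted p = 0.796 from limma). By limma, 0 of the 4 Jak kinase genes and 0 of the 5 Stat genes tested were called or had an unadjusted p under 0.05, with median log2 fold changes of -0.025 and -0.022. Jak1, the main kinase bound to gp130, had 32.4 ± 1.72 FPKM in control and 32.8 ± 1.47 FPKM in the cocktail (SD, n = 6 each).

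Socs3, the feedback inhibitor of gp130 signalling, lies on chromosome 11 from 117966087 to 117969366. In control hemispheres of mice 1 to 6 its FPKM was 11.7, 14.0, 16.0, 15.1, 18.5 and 19.0, and in the cocktail it was 12.9, 16.0, 19.3, 20.5, 21.4 and 15.8. It was higher in the cocktail in mice 1 to 5, with ratios of 1.10 to 1.36, and lower in mouse 6, with a ratio of 0.83. The means were 15.7 ± 2.78 and 17.6 ± 3.28 FPKM (SD, n = 6 each), and the log2 fold change was 0.15 (standard error 0.074, 95% interval -0.01 to 0.32). It was not called (unadjusted p = 0.0584, adjusted p = 0.653 from limma), and the exact permutation test by sign flips gave p = 0.1875. With 529 to 901 reads per library, the counting SD of a within-mouse log2 ratio was 0.08, and the SD between mice was 2.97 times as large. Without mouse 6 the log2 fold change was 0.24 (standard error 0.060, adjusted p = 0.108 from limma), still above the threshold. Without mouse 4 it was 0.10 (adjusted p = 0.969 from limma), and the other fits that left out 1 mouse lay in between.

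Socs1, which encodes an inhibitor that acts mainly on Jak kinases at interferon receptors, lies on chromosome 16 from 10783809 to 10785536. Its FPKM was 2.86, 2.75, 2.04, 2.40, 2.42 and 2.21 in control and 2.80, 3.61, 3.45, 2.78, 3.24 and 1.46 in the cocktail. Mice 2 to 5 were higher, mouse 1 was nearly level and mouse 6 was lower. Only 16 to 40 reads per library lie behind these values, and the SD of the within-mouse log2 ratios, 0.47, was close to the 0.39 of counting error. Its log2 fold change was 0.15 (standard error 0.101, 95% interval -0.07 to 0.37, adjusted p = 0.787 from limma). Leaving out 1 mouse gave from 0.07 without mouse 3 (adjusted p = 0.942 from limma) to 0.26 without mouse 6 (adjusted p = 0.315). A rise of up to 1.29-fold or a fall to 0.95-fold on the FPKM + 1 scale lies within the interval.

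**Figure D2:**
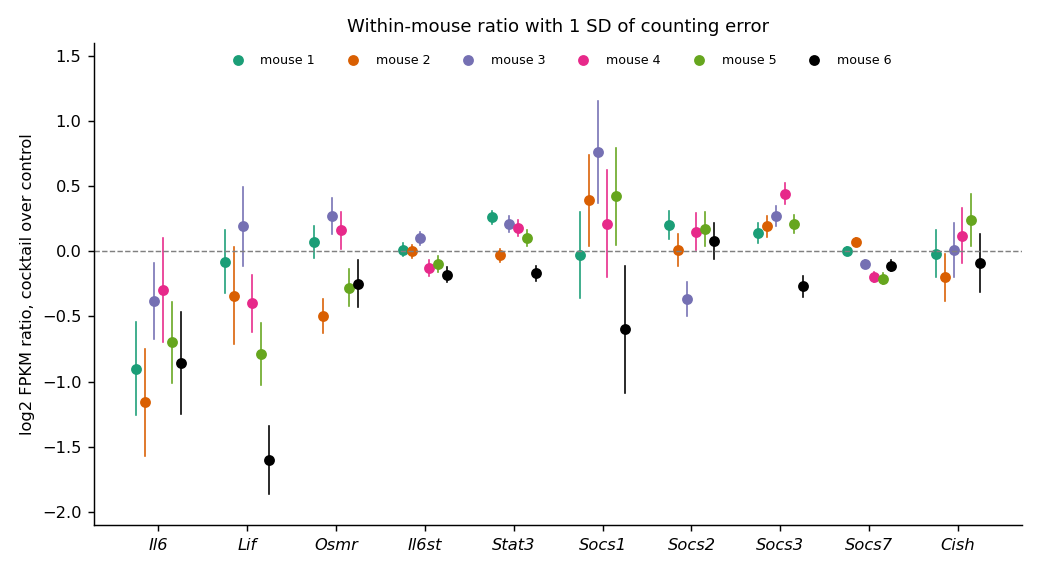
Log2 ratio of FPKM in the cocktail over the control hemisphere (y axis) of each mouse (colored points) for the 10 genes, with bars of 1 SD of counting error from the recovered reads. The 6 points of Il6 lie below 0, and the point of mouse 6 lies below those of the other mice for Lif, Il6st, Stat3, Socs1 and Socs3.

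The other feedback genes held their level more closely. Socs2, which restrains growth hormone signalling, lies on chromosome 10 from 95411490 to 95416857 and had 7.42 ± 1.04 FPKM in control and 7.59 ± 0.673 FPKM in the cocktail (SD, n = 6 each). It was higher in 5 of 6 mice and lower in mouse 3, where it went from 8.86 to 6.87 FPKM. The log2 fold change was 0.03 (standard error 0.068, adjusted p = 0.943 from limma). Cish, an inhibitor induced through STAT5, lies on chromosome 9 from 107296689 to 107301961 and had 3.39 ± 0.544 FPKM in control and 3.40 ± 0.315 FPKM in the cocktail (SD, n = 6 each). Its log2 fold change was 0.01 (standard error 0.060, 95% interval -0.12 to 0.14), with 3 mice higher and 3 lower. Exons of Gm17040 and Gm17041 overlap those of Cish on the opposite strand in GENCODE M21. The libraries were strand-specific, but the strand setting of the FPKM estimate is not given in the sources used here, and whether reads of the latter enter the values of Cish was not tested.

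Socs7, on chromosome 11 from 97362551 to 97398542, was the most abundant of the 10 genes per length. Its FPKM in mice 1 to 6 was 28.0, 28.7, 29.7, 29.5, 27.0 and 28.9 in control and 28.0, 30.1, 27.7, 25.8, 23.4 and 26.9 in the cocktail. The values of mice 3 to 6 were lower in the cocktail by more than counting error, mouse 1 was level and mouse 2 was higher. The log2 fold change was -0.09 (standard error 0.049, 95% interval -0.20 to 0.02, adjusted p = 0.743 from limma), and the exact permutation test by sign flips gave p = 0.09375. With 2423 to 4982 reads per library, this is the member with the smallest counting error, and the interval of the fold reaches from 0.87 to 1.01. Of the 8 genes of the Socs family, Socs4, Socs5 and Socs6 included, 0 were called by limma and 0 had an unadjusted p under 0.05, and their median log2 fold change was 0.011. Socs5 was the second most abundant, with 24.7 ± 2.67 FPKM in control and 24.4 ± 1.78 FPKM in the cocktail (SD, n = 6 each). The 5 measured partners with which SOCS proteins form a ubiquitin ligase (Tceb1, Tceb2, Cul5, Rnf7 and Rbx1) had log2 fold changes between -0.03 and 0.05, with 0 called by limma and 0 at an unadjusted p under 0.05.

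**Figure D3:**
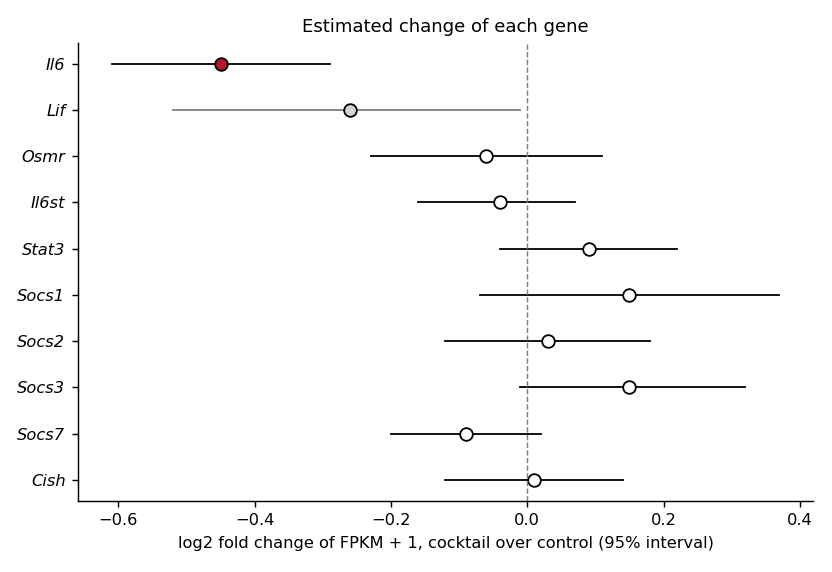
Log2 fold change of FPKM + 1 in the cocktail over control (x axis) with its 95% interval from limma for each of the 10 genes. The red point is Il6, the single gene called, open points are genes tested and not called, and the grey point is Lif from the fit with no filter on low values.

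In mouse 6, 9 of the 10 genes were lower in the cocktail and only Socs2 was higher, whereas in mice 1 to 5 between 3 and 5 of the 10 were lower. Among all loci tested, 56.6% were lower in the cocktail in mouse 6, between 35.1% and 62.4% in the others, and the median within-mouse difference over these loci was -0.02 on the log2(FPKM + 1) scale. The control library of mouse 6 was the shallowest of the 12, with 10601067 reads against 16422996 in its cocktail library. The part of this depth in the result was not tested.

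The order of the levels per length in control hemispheres was Socs7, Stat3, Socs3, Il6st, Socs2, Cish, Osmr, Socs1, Il6 and Lif. Socs7 exceeded Stat3 in 6 of 6 libraries with no overlap (28.7 against 16.1 FPKM on average). Stat3 and Socs3 did not differ beyond their spread, with Stat3 above in 3 of 6 libraries. Socs3 was above Il6st in 5 of 6, with overlapping ranges. Il6st, Socs2 and Cish were separated from one another, with ratios of means of 1.85 and 2.19. Cish, Osmr, Socs1 and Il6 had overlapping ranges from each to the next, although Cish exceeded Osmr in 6 of 6 libraries, and Osmr exceeded Socs1 in 4 and Socs1 exceeded Il6 in 3 of 6 libraries. Il6 exceeded Lif in 6 of 6 libraries, although their ranges overlapped. In cocktail hemispheres, Socs3 stood above Stat3 in 4 of 6 libraries and Socs1 above Osmr in 4 of 6, and in neither pair were the ranges separate.

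Genes that STAT3 is known to regulate moved in both directions. The list holds 20 genes, of which 19 passed the filter. Of these, 4 were called higher and 3 lower, against 1.22% and 0.274% of all loci tested. The median log2 fold change was 0.081, against 0.0076 over all loci. The list was drawn up from general knowledge, but with earlier results of these data known, so these counts are a description and not an independent test. All of these genes have other regulators as well. Mcl1, which encodes an inhibitor of apoptosis, went from 55.05 ± 5.82 to 74.75 ± 7.19 FPKM (SD, n = 6 each, log2 fold change 0.44, adjusted p = 0.00573 from limma). Cebpb, a bZIP transcription factor gene, went from 22.5 ± 1.78 to 30.3 ± 3.52 FPKM (log2 fold change 0.41, adjusted p = 0.00302), and Myc from 3.71 ± 0.497 to 5.14 ± 1.18 FPKM (log2 fold change 0.37, adjusted p = 0.0346). The falls were those of Ccl2, a chemokine gene, from 4.68 ± 1.33 to 2.55 ± 0.408 FPKM (log2 fold change -0.66, adjusted p = 0.0103), and of Icam1, a cell adhesion gene, from 11.2 ± 1.96 to 7.93 ± 2.51 FPKM (log2 fold change -0.48, adjusted p = 0.00971). The remaining calls of the list were the kinase gene Pim3 (log2 fold change 0.33) and Bcl3 (-0.35), which encodes a cofactor of NF-kB. Their changes were the smallest of the 7 on the FPKM + 1 scale, which understates the change of genes with low FPKM. With a pseudocount of 0.1 in place of 1, Bcl3 had -0.52 and Pim3 had 0.34. Mcl1, Cebpb and Myc then had 0.44, 0.43 and 0.44, and Ccl2 and Icam1 had -0.82 and -0.53. The 7 genes called moved in one direction in 6 of 6 mice. Each read had 1 placement, so sequence shared by Ccl2 and related chemokine genes makes its values uncertain. Mcl1 alone of the 7 was called under every alternative tried, and the calls of Myc, Bcl3, Pim3 and Icam1 were lost without the block (adjusted p = 0.293, 0.0614, 0.209 and 0.276 from limma). With voom on the recovered reads, Mcl1 and Icam1 were the 2 genes called in all the pathway lists.

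The other 12 genes tested in this list were not called, and their log2 fold changes lay between -0.19 (Lcn2) and 0.38 (Il1rn). Il1rn, which encodes an antagonist of the interleukin 1 receptor, and Vim, an intermediate filament gene of astrocytes and other cells, had an unadjusted p under 0.05. Il1rn was higher in 5 of 6 mice (log2 fold change 0.38, adjusted p = 0.0983 from limma), as was Vim (log2 fold change 0.12, adjusted p = 0.527). Gfap, the intermediate filament gene of astrocytes, ranged from 42.05 to 62.9 FPKM in control and from 41.8 to 76.1 FPKM in the cocktail (log2 fold change 0.11, adjusted p = 0.783 from limma). Of 8 astrocyte markers, Gfap among them, 0 were called by limma and 1 had an unadjusted p under 0.05, with a median log2 fold change of 0.059.

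**Figure D4:**
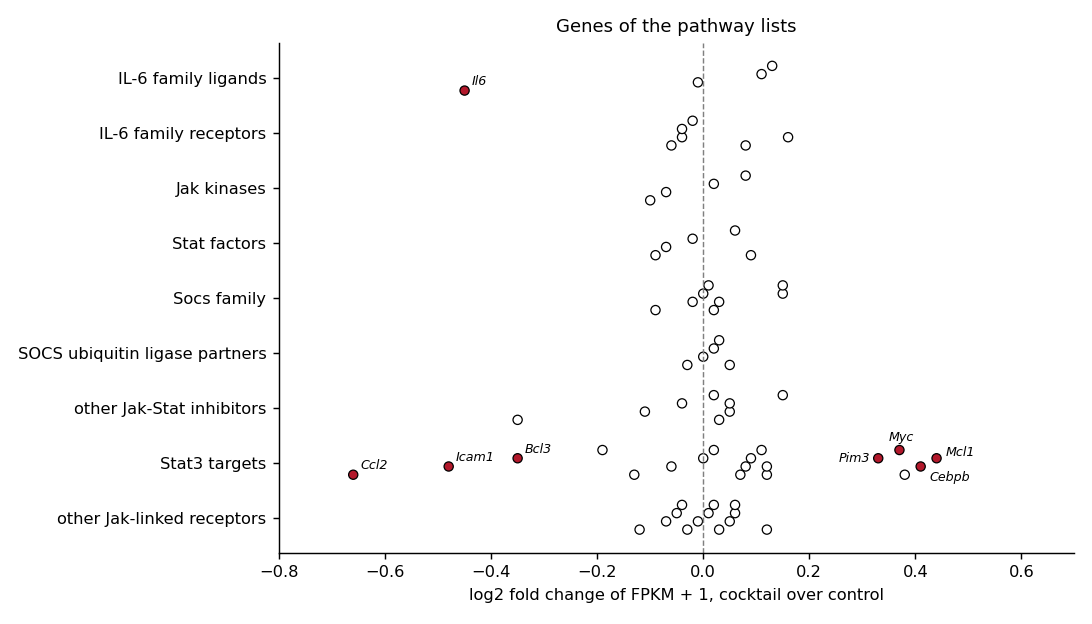
Log2 fold change of FPKM + 1 in the cocktail over control (x axis) of each gene tested, by pathway list (rows), with genes called by limma in red and named. Calls lie in the lists of ligands (Il6) and of Stat3 targets (4 higher, 3 lower), and the 8 Socs genes lie between -0.09 and 0.15.

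Inhibitors of the pathway other than the Socs genes were not called, 0 of 8 by limma, although 2 had an unadjusted p under 0.05. Ptpn6, a phosphatase gene of blood and microglial cells, had 1.29 ± 0.265 FPKM in control and 0.797 ± 0.122 FPKM in the cocktail (SD, n = 6 each) and was lower in 5 of 6 mice (log2 fold change -0.35, adjusted p = 0.12 from limma). Ptpn2, which encodes a phosphatase of Jak and STAT proteins, was higher in 6 of 6 mice, with a log2 fold change of 0.15 (adjusted p = 0.611). Among 21 receptor genes of other cytokines and hormones that signal through Jak kinases, 13 passed the filter. None of the 13 was called by limma, with 1 at an unadjusted p under 0.05. Csf2rb, a gene of this list below the filter, was singled out after its values were seen. It was higher in 6 of 6 mice, and the fit with no filter called it (adjusted p = 0.0259 from limma).

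The 3 loci whose within-mouse differences were most like those of Il6, by the root mean square of the gaps over the 6 mice, were Ccl7 (0.121), Icosl (0.138) and Irf8 (0.184 on the log2 scale). Ccl7 encodes a chemokine, Icosl a ligand of T cell costimulation, and Irf8 a transcription factor of microglia and other myeloid cells. Ccl7 had 4.07 FPKM in control and 2.72 FPKM in the cocktail on average, Icosl 2.98 and 2.19 FPKM, and Irf8 2.65 and 1.77 FPKM. Their log2 fold changes were -0.47, -0.32 and -0.39. The limit given for Ccl2, from sequence shared with related chemokine genes, holds for Ccl7 as well. A likeness over 6 mice among 12032 loci is a description of these libraries. Irf8 was called under every alternative that could be fitted, whereas Ccl7 and Icosl were not called without the block (adjusted p = 0.588 and 0.375 from limma).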

How the data were processed

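Bulk poly-A RNA of 6 control and 6 cocktail-treated hemispheres was sequenced with single reads of 50 bp in 1 lane. Ribosomal reads were removed with BWA 0.6.1, the others were aligned to mm10 with TopHat 1.4.1 with 1 placement per read, and FPKM values with bias correction were estimated with Cufflinks 1.3.0 by the authors, who deposited them with confidence intervals. A deposited table of the authors' own DESeq2 comparison, with group means, fold changes and p-values, was not used here.

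FPKM values were used as deposited. Reads behind a value are the squared ratio of the FPKM to the Poisson SD in its interval (82.1% of 17844 values of low loci, at most 20 reads, were whole to within 0.05), and intervals from them cover counting error only. limma 3.58.1 in R 4.3.3 was run on log2(FPKM + 1) with mouse and treatment as terms and a trend in the variance, two-sided, at an adjusted p of 0.05, and was tested on simulated data. Every adjusted p is from this fit unless another setting is named. The mouse numbers pair the hemispheres by animal, and deviations of same-mouse libraries from their group means correlated at 0.216 to 0.406 across loci (6 pairs). Libraries of a group all differed beyond sampling noise (smallest chi-square per locus 7.10). The p-values from limma test the mean within-mouse difference against the spread between these 6 mice, moderated by a trend over all loci tested. Those from sign flips use the 6 differences alone. Alternatives were a pseudocount of 0.1, no filter or a mean of at least 5 FPKM, median-of-ratios or quantile scaling, no trend, loci with status OK in all libraries, no replicate block, voom on the recovered reads, and each mouse left out. The rule named the 10 genes, the called genes of each pathway list (up to 5), and the 3 loci most like each called gene. Pim3, Bcl3, Csf2rb and the uncalled genes of the lists were named after their values were seen. The genes and lists were chosen with earlier results of these data known. Marker lists covered neurons, astrocytes, microglia, oligodendrocytes, endothelial, mural and meningeal cells, choroid plexus and blood, with 0 genes called by limma, while 1 astrocyte, 3 mural or meningeal and 1 blood marker had an unadjusted p under 0.05. Coordinates count from 1, promoters are from RefSeq, and exon overlaps are from GENCODE M21. Figures were drawn with matplotlib 3.10.9.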

Additional observations from a re-analysis of the deposited data

Results flagged for a closer look

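Among the 10 genes, 30 groups of 6 values were examined for a value that stands apart, and 2 were found, where about 1 in 20 groups, or 1.5, would be by chance. Cish had 4.45 FPKM in the control hemisphere of mouse 2, while the other controls had 2.97 to 3.38 FPKM, so that the gap was 0.72 of the whole range. For Socs2, the log2 difference between the hemispheres of mouse 3 was -0.33, while those of the other mice lay between 0.01 and 0.17, a gap of 0.667 of the range. The cause of either was not tested.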

How the results depend on the processing

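The number of loci called was 180, and it was 88 without the replicate block. Leaving out each mouse in turn gave 104 (without mouse 4) to 181 (without mouse 6). The count of the 10 genes called was 1 (Il6) and became 0 without the replicate block, with voom on the recovered reads, and at a mean of at least 5 FPKM, where Il6 is no longer tested. It was 1 with each mouse left out in turn. In the pathway lists, 8 genes were called, Il6 included. This became 5 with no filter on low values, 4 at a mean of at least 5 FPKM with fewer genes tested, 3 without the replicate block and 2 with voom, and leaving out single mice gave 5 (without mouse 2 or mouse 4) to 8. The sign of Cish, which was not called, changed from 0.01 to -0.01 under quantile normalization and with voom, and to between -0.03 and -0.01 without mouse 4 or mouse 5, and single mice left out gave -0.03 to 0.04. The cause was not tested, and the other alternatives changed no count by over 1.5 times. The log2 fold change of Il6 stayed negative, between -0.68 and -0.41, in the 14 alternatives that could test it, and it was called in 12. Of the other 8 genes tested, none was called under any alternative. Among Stat3 targets, calls were also lost in other alternatives. Voom left Cebpb and Ccl2 uncalled (adjusted p = 0.214 and 0.106). Icam1 was uncalled without the block (0.276) and with no filter on low values (0.0594), and Ccl2 with no filter (0.0795) and without mouse 2 (0.0583). Pim3 was uncalled in 4 of 15 alternatives. Bcl3, Myc, Ccl7 and Icosl lost their call in most fits that left out a mouse. Few reads limit Il6, Lif and Socs1.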

Other observations

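Csf2rb, the shared signalling subunit of the receptors for GM-CSF, interleukin 3 and interleukin 5, was below the filter and was singled out after its values were seen. It had 0.563 ± 0.103 FPKM in control and 1.39 ± 0.361 FPKM in the cocktail (SD, n = 6 each), and the ranges of 0.396 to 0.672 and 0.828 to 1.75 FPKM did not overlap. It was higher in 6 of 6 mice, a ratio of means of 2.46, and in the fit with no filter its log2 fold change was 0.60 (standard error 0.090, adjusted p = 0.0259 from limma over 17477 loci). Its paralog Csf2rb2 had a ratio of means of 1.42 and was higher in 6 of 6 mice, but it was not called in that fit (adjusted p = 0.161). Each read had 1 placement, so reads from sequence that the paralogs share are uncertain. Between 37 and 151 reads per library lie behind Csf2rb.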
